A study of Mus musculus with 16 samples.

Results

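The genes described here encode 10 proteins of the basement membrane: the type IV collagen chains Col4a1 and Col4a2, the associated collagen Col15a1, the laminin chains Lama2, Lama4, Lamb1, Lamb2 and Lamc1, the linker nidogen (Nid1) and the heparan sulfate proteoglycan perlecan (Hspg2). They were chosen by gene symbol, and all 10 were found among the 35682 genes of the deposited table. RNA came from adult ventricular myocytes of B3AR-Tg mice and of WT littermates, with 8 animals per genotype. Both groups had undergone TAC (constriction of the aorta by surgery, which puts the left ventricle under pressure load), and cells were taken 9 weeks later. No unoperated animal is included, so the comparison is between genotypes under load. B3AR is a usual short form of the beta-3 adrenergic receptor; the labels do not give the transgene's promoter or species, or the age of the mice. Hearts were digested by perfusion and the cells plated for an hour before RNA was taken, which leaves room for other cell types in the preparation.

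A basement membrane is a thin sheet of matrix that surrounds each cardiac myocyte and underlies the endothelium of capillaries. Laminins, trimers of an alpha, a beta and a gamma chain, polymerise at the cell surface and bind integrins and dystroglycan. Type IV collagen forms a second network, whose trimers hold more chains of Col4a1 than of Col4a2, and nidogen and perlecan join the networks. In muscle, Lama2 is the alpha chain of the myocyte sheet, and its loss causes muscular dystrophy, while Lama4 is found mainly in vessels.

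Library totals lay between 5985335 and 14365864 counts. Mouse Adrb3, the gene of the beta-3 adrenergic receptor, held between 0 and 4 counts in every library, and so could not check the labels. Adgrb3, a different gene that encodes an adhesion receptor, held 0 to 3 counts in WT libraries and 247 to 723 in B3AR-Tg libraries. The cause of that difference was not tested. Expression is given as CPM, counts scaled to each library's total with TMM factors. The defining myocyte genes, 10 in all with Ttn and Myh6 highest, summed to 67791 to 92297 CPM (WT) and 74381 to 112159 CPM (B3AR-Tg). In bulk RNA such as this, fewer cells of a type and less RNA per cell cannot be told apart.

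Among the 10 genes, the linker and 2 of the 3 collagens fell in B3AR-Tg, and no laminin chain passed the test. Nid1, Col4a1 and Col15a1 were lower at an adjusted p under 0.05 (edgeR's quasi-likelihood test, Benjamini-Hochberg over all 10945 tested genes), and none was higher. That is 3 of 10 genes, against 4.91% of all tested genes called in either direction, 2.88% called lower and 2.03% called higher. At an unadjusted p under 0.05 (edgeR) there were 4 of 10, the same 3 and Col4a2, against 19.3% of all tested genes. The median log2 fold change of the 10 was −0.26, and that of all tested genes was 0.01. Fold changes below 1 were found for 8 of the 10 genes and for 48.9% of all tested genes. All 10 passed the low-count filter.

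**Figure D1:**
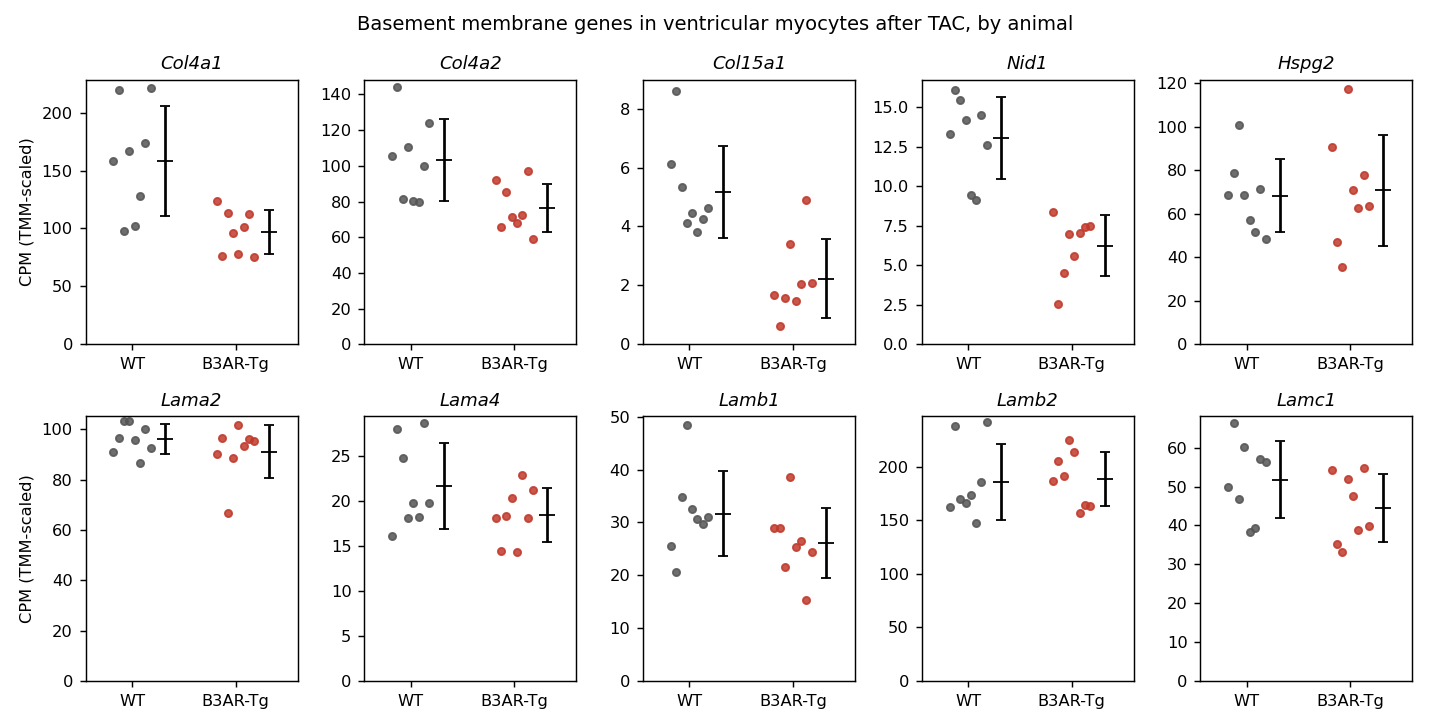
Level of each of the 10 genes in CPM (TMM-scaled, vertical axes from 0) in 8 WT and 8 B3AR-Tg animals; each point is an animal and the bar is the mean with its SD. The groups do not overlap for Nid1, overlap in part for Col4a1, Col4a2 and Col15a1, and lie side by side for Lama2, Lamb2 and Hspg2.

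Levels between genes were compared per kilobase of the longest coding transcript. In WT, Lamb2 was highest, at 33.0 ± 6.29 CPM per kb (SD, n = 8), followed by Col4a1 at 24.0 ± 7.16. Next came Col4a2, with animals between 12.4 and 22.3 CPM per kb, and Lama2, with animals between 9.00 and 10.7. The remaining genes were Lamc1 (6.79 ± 1.31 CPM per kb), Lamb1 (5.47 ± 1.396), Hspg2 (4.81 ± 1.19), Lama4 (3.58 ± 0.795), Nid1 (2.15 ± 0.425) and Col15a1 (0.998 ± 0.303). Animals of neighbouring genes in this order overlapped except between Col4a2 and Lama2, between Lama2 and Lamc1, and between Lama4 and Nid1. In B3AR-Tg the order was the same apart from Hspg2 and Lamb1, which changed places. There Lamb2 (33.5 ± 4.49 CPM per kb) stood clear of Col4a1 (14.7 ± 2.83), whose animals had overlapped with those of Lamb2 in WT. Of the alpha chains, Lama2 was above Lama4 per length in every animal of both genotypes.

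Nid1 (ENSMUSG00000005397), which binds laminin and type IV collagen and so links the networks, fell by 52.3%. The WT animals held 9.12 to 16.1 CPM with a median of 13.8, and the B3AR-Tg animals 2.56 to 8.37 CPM with a median of 7.01. Every B3AR-Tg animal lay below every WT animal, a separation found for 0.247% of all tested genes. On the log2 scale the difference was −1.07 (SE 0.19), with a 95% interval of −1.46 to −0.68 (edgeR adjusted p = 0.00425). Counts of Nid1 ranged from 29 to 189 per library.

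Col4a1 (ENSMUSG00000031502) fell too, and its partner Col4a2 (ENSMUSG00000031503) narrowly missed the threshold. Col4a1 lay at 98.1 to 221 CPM in the WT animals (median 162) and at 75.7 to 123 CPM in the transgenic ones (median 98.5). All 8 B3AR-Tg animals were below the WT median, and 6 WT animals were above every B3AR-Tg animal, but WT replicates 3 and 5 (98.1 and 102 CPM) lay within the B3AR-Tg range. Its log2 fold change was −0.71 (SE 0.16, interval −1.05 to −0.37; edgeR adjusted p = 0.0161). For Col4a2 the WT animals spread over 79.9 to 144 CPM (median 103) and the transgenic animals over 59.0 to 97.2 CPM (median 72.1), with 5 of the latter below all WT animals. Its log2 fold change was −0.44 (SE 0.13, interval −0.70 to −0.17; edgeR adjusted p = 0.0560, unadjusted p = 0.00299). By DESeq2 (adjusted p = 0.0234), limma voom with sample weights (adjusted p = 0.0335) and edgeR with upper quartile scaling (adjusted p = 0.0497), Col4a2 passed. It also passed when WT replicate 3, 5 or 6, or B3AR-Tg replicate 1 or 7, was left out (adjusted p from 0.0309 to 0.0444).

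Col15a1 (ENSMUSG00000028339), a collagen of the outer face of the basement membrane that carries glycosaminoglycan chains, had the lowest level of the 10 and the largest fold change among them. The WT animals held 3.82 to 8.58 CPM (median 4.53), and the B3AR-Tg animals 0.618 to 4.90 CPM (median 1.86). In B3AR-Tg, 7 of 8 animals lay below all WT animals, and replicate 7 was the exception at 4.90 CPM. Its log2 fold change was −1.23 (SE 0.29, interval −1.84 to −0.62; edgeR adjusted p = 0.0202). Libraries held 7 to 101 counts of it, so counting error is larger for this gene than for the others.

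The laminin chains differed less, and none of the 5 passed. Lama2 was the steadiest gene, with WT animals at 86.5 to 103 CPM (median 96.1) and B3AR-Tg animals at 66.8 to 102 CPM (median 94.4) and a log2 fold change of −0.08 (standard error 0.08, interval −0.24 to 0.09, edgeR adjusted p = 0.640). Its coefficient of variation over WT animals was 6.21%, against 19.0% to 30.4% for the other 9 genes. Lamb2, the beta chain enriched in muscle and vessel walls, had WT animals at 147 to 242 CPM (median 172) and B3AR-Tg animals at 157 to 225 CPM (median 189). Its log2 fold change was 0.02 (interval −0.21 to 0.24, edgeR adjusted p = 0.957), and the sign turned when any of 6 single animals was left out. For Lamb2 all B3AR-Tg animals lay within the WT range, and for Lama2 all but replicate 3 (66.8 CPM) did.

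Lama4, Lamb1 and Lamc1 had fold changes a little below 1 that did not pass. Lama4 had medians of 19.7 CPM (WT) and 18.3 CPM (B3AR-Tg) and a log2 fold change of −0.23 (interval −0.51 to 0.04, edgeR adjusted p = 0.349). For Lamb1, which forms trimers in place of Lamb2, the medians were 30.8 and 25.9 CPM and the log2 fold change −0.28 (interval −0.62 to 0.05, adjusted p = 0.355). Lamc1, the gamma chain common to most laminins, had medians of 53.0 and 43.6 CPM and a log2 fold change of −0.22 (interval −0.49 to 0.04, adjusted p = 0.359). The intervals of these 3 genes reach from a rise of 0.04 or 0.05 to a difference of −0.49 to −0.62 on the log2 scale. Hspg2 was the most variable gene in B3AR-Tg apart from Col15a1, at 35.7 to 117 CPM (median 67.1) against 48.3 to 101 CPM in WT (median 68.5). Its log2 fold change was 0.05 with an interval of −0.35 to 0.44 (edgeR adjusted p = 0.927).

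**Figure D2:**
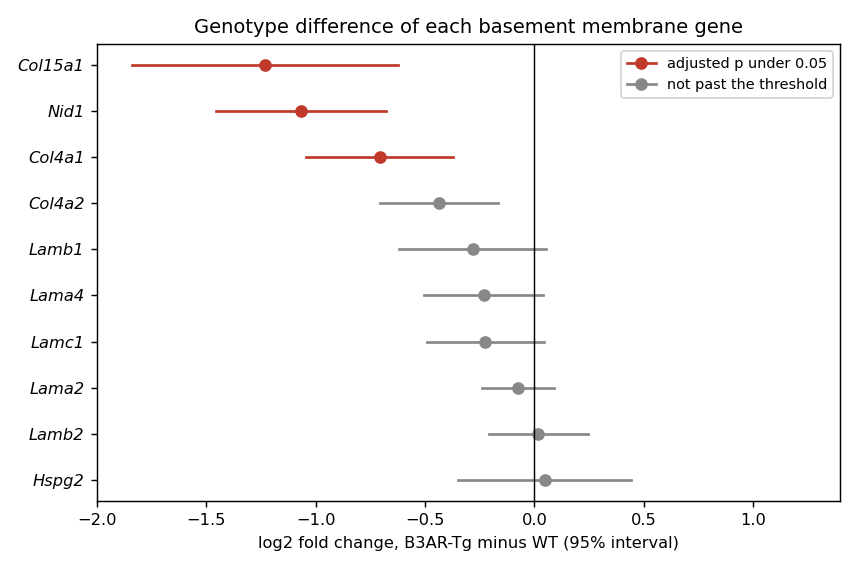
Log2 fold change (B3AR-Tg minus WT, horizontal axis) of each gene with its 95% interval from edgeR; red marks an adjusted p under 0.05. Col15a1, Nid1 and Col4a1 are past the threshold, Col4a2 has an interval below 0 but an adjusted p of 0.0560, and the intervals of the 5 laminin chains and Hspg2 include 0.

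Whether pairs of these genes differed unequally between genotypes was tested with ratios of counts within each library, which need no scaling. A ratio does not remove differences in the mix of cell types, whose part in it was not tested. Ratios were taken for 6 pairs and compared by exact two-sided permutation over all 12870 splits of the animals, with adjustment over the 6. Nid1 relative to Lamc1 had a median ratio of 0.245 in WT and 0.136 in B3AR-Tg, and every B3AR-Tg animal was below every WT animal. The log2 difference was −0.89 (SE 0.16; exact permutation p = 0.000155, the smallest possible here, adjusted p = 0.000932). So Nid1 fell relative to the shared laminin chain.

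Col4a1 also fell relative to Col4a2. The median ratio was 1.52 in WT (range 1.20 to 1.78) and 1.30 in B3AR-Tg (range 1.15 to 1.39), a log2 difference of −0.25 (SE 0.08; exact permutation adjusted p = 0.0308). Groups overlapped, with 3 B3AR-Tg animals below all WT animals. This call was lost when WT replicate 6, 7 or 8 or B3AR-Tg replicate 2 or 5 was left out (exact permutation adjusted p from 0.0536 to 0.0597), and with medians in place of means (0.120). The other 4 ratios did not pass. Lama4 to Lama2 differed by −0.13 (standard error 0.15, exact permutation adjusted p = 0.395) and Lamb1 to Lamb2 by −0.31 (0.22, adjusted p = 0.251). Hspg2 to Lamc1 differed by 0.23 (0.17, adjusted p = 0.251) and Col15a1 to Col4a1 by −0.70 (0.32, adjusted p = 0.0979). Without WT replicate 2 the Lamb1 to Lamb2 ratio passed (−0.45, adjusted p = 0.0476), as did Col15a1 to Col4a1 without B3AR-Tg replicate 7 (−0.85, adjusted p = 0.0398).

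**Figure D3:**
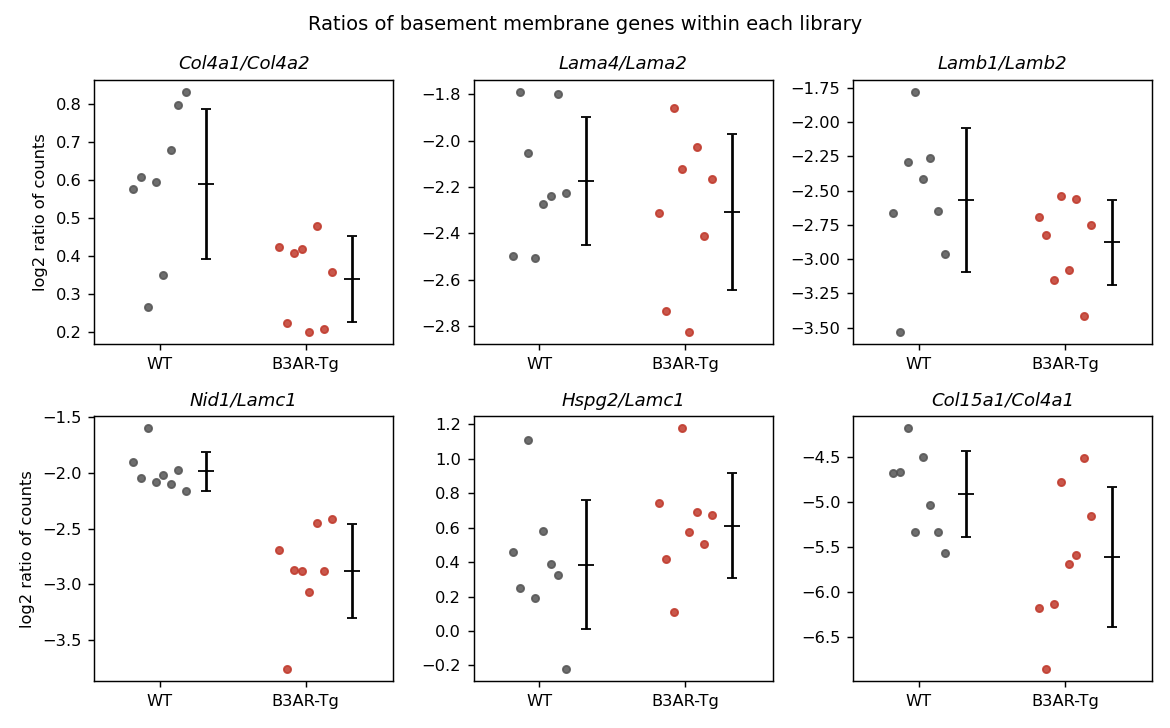
Log2 ratio of counts of 6 gene pairs (vertical axes, not starting at 0) in each WT and B3AR-Tg animal, with mean and SD beside the points. For Nid1/Lamc1 all 8 B3AR-Tg animals sit below all 8 WT animals, for Col4a1/Col4a2 the groups are shifted but overlap, and the other 4 ratios did not pass the test.

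Promoter windows from RefSeq (GRCm38.p6, from 250 bases before to 50 after the annotated start) were found for 8 of the 10 genes. Col4a1 and Col4a2 lie head to head on chromosome 8: Col4a1 starts at 11312826 on the minus strand and Col4a2 at 11312805 on the plus strand. The transcripts therefore share 22 bases, and the windows 78. With both strands searched, CCAAT was found in 4 of the 8 windows (Col4a1, Col4a2, Lamb1 and Nid1), against 37.4% of all 32851 RefSeq windows. GGGCGG was found in 6 of 8 (35.7% of all windows), with 1 copy in the stretch that Col4a1 and Col4a2 share, and TATAAA in 0 of 8 (13.6% of all windows). None of the 3 motifs contains another. A match describes letters only.

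The upstream stretches of Nid1 and Col15a1, the genes with the largest fold changes of the 10, are shown as examples. They are printed on the plus strand, ending before the annotated exons, with CCAAT and GGGCGG on either strand in capitals. The Nid1 stretch is 199 bases long (chr13:13437352-13437550) and holds 1 copy of each motif, CCAAT being read on the opposite strand as ATTGG. The Col15a1 stretch is 250 bases long (chr4:47207762-47208011) and holds 0 copies of both.
Nid1: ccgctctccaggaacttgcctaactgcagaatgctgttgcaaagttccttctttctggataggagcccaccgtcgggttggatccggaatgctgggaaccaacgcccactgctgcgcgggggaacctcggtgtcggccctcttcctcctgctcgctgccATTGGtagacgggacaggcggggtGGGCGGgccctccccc
Col15a1: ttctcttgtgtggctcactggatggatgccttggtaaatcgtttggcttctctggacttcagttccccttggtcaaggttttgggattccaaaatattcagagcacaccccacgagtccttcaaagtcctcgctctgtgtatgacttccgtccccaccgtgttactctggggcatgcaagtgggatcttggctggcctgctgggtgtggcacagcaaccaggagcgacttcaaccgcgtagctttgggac

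Some further genes of basement membranes were also lower in B3AR-Tg. Of 28 in the list, 18 were tested, 6 fell and 0 rose at the same threshold (2.88% and 2.03% of all tested genes), with a median log2 fold change of −0.29. The 6 that fell were Sparc, a matrix protein that binds collagen (log2 fold change −1.23, edgeR adjusted p = 0.00382), Nid2, the second nidogen (−1.08, adjusted p = 0.0253), Col18a1, the relative of Col15a1 (−1.39, adjusted p = 0.0341), Loxl2, a lysyl oxidase that crosslinks type IV collagen (−1.49, adjusted p = 0.0191), Fbln2, a fibulin (−1.13, adjusted p = 0.0142) and Tinagl1, a secreted basement membrane glycoprotein (−0.95, adjusted p = 0.0191). Sparc lay at 24.1 to 68.5 CPM over WT animals and 11.1 to 22.9 CPM over transgenic ones, without overlap. All B3AR-Tg animals lay below all WT animals for 0.247% of all tested genes. Nid2 was low, with means of 2.34 ± 0.566 (WT) and 1.10 ± 0.497 CPM (B3AR-Tg). The most abundant genes of this list that did not pass were Lama5 (log2 fold change 0.15, adjusted p = 0.786), Col4a5 (−0.11, adjusted p = 0.705) and the hemicentin Hmcn1 (−0.14, adjusted p = 0.603). Lama1, Lamc3 and Npnt had 3 counts or fewer in every library.

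Of 13 receptor genes, 11 were tested and 1 was called, where 4.91% of all tested genes were called. This was Itga1, the alpha subunit of a collagen-binding integrin that prefers type IV collagen, which fell by 0.64 on the log2 scale (35.7 ± 4.97 CPM in WT, 23.1 ± 6.50 in B3AR-Tg, edgeR adjusted p = 0.0199). Its beta subunit Itgb1 was at 333 ± 48.2 and 282 ± 24.1 CPM (log2 fold change −0.24, adjusted p = 0.130). The laminin receptors dystroglycan (Dag1, 0.16, adjusted p = 0.329) and Bcam (0.25, adjusted p = 0.271) had fold changes above 1 that did not pass. Of the 22 genes for synthesis and secretion of these proteins, including prolyl and lysyl hydroxylases and the collagen chaperone Serpinh1, 21 were tested and 0 passed, while 4 had an unadjusted p under 0.05 (edgeR), a share near the 19.3% of all tested genes. Their median log2 fold change was 0.10.

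Of 15 genes for matrix turnover, 10 were tested, 3 fell and 1 rose (2.88% and 2.03% of all tested genes). Timp3, a matrix-bound inhibitor of metalloproteinases, fell by 1.15 on the log2 scale (56.5 ± 18.4 CPM in WT, 25.4 ± 8.51 in B3AR-Tg, edgeR adjusted p = 0.00485). Timp4 (−1.05, adjusted p = 0.0376) and the type IV collagenase Mmp2 (−1.51, adjusted p = 0.0290) fell from lower levels. The membrane-bound metalloproteinase Mmp15 rose by 0.54 on the log2 scale (30.6 ± 9.52 CPM in WT, 44.4 ± 2.68 in B3AR-Tg, edgeR adjusted p = 0.0426).

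**Figure D4:**
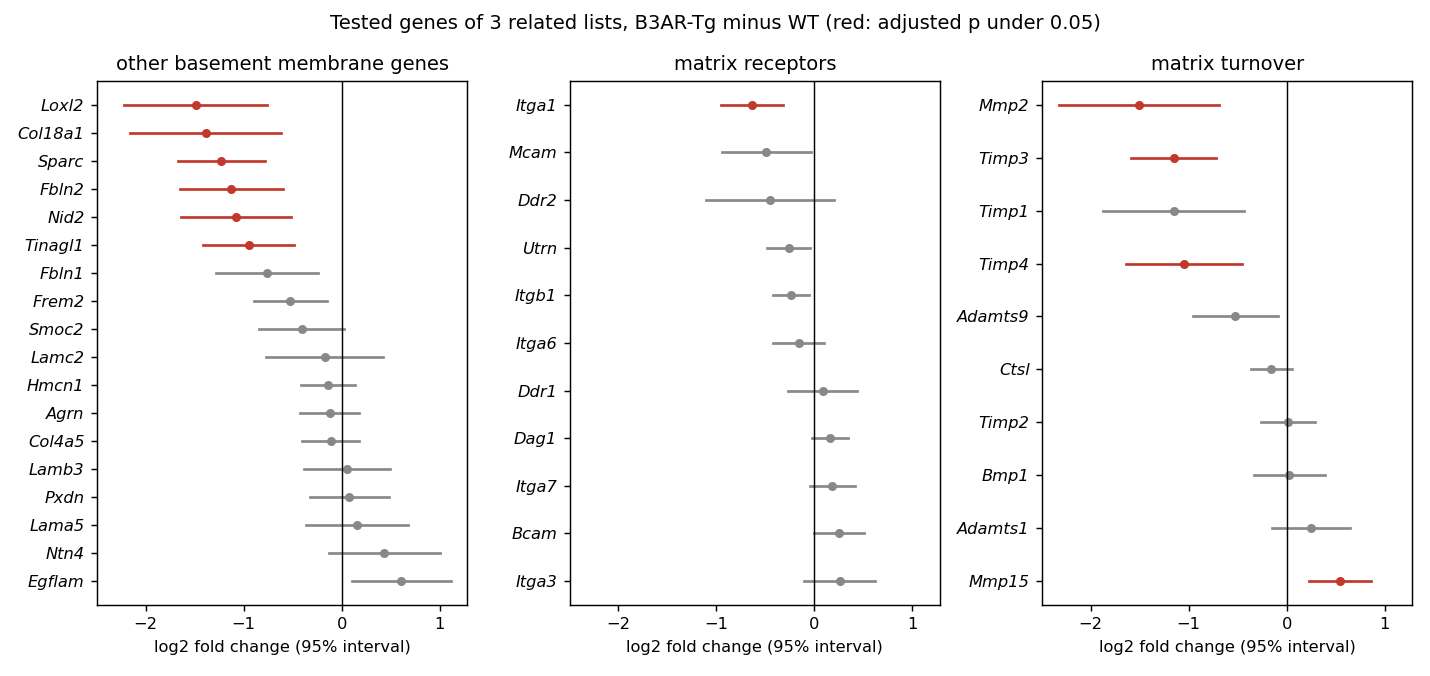
Log2 fold change (B3AR-Tg minus WT, horizontal axes) with 95% intervals for the tested genes of 3 lists: 18 further basement membrane genes, 11 matrix receptors and 10 genes of matrix turnover; red marks an adjusted p under 0.05. Called genes are lower in all 3 lists except Mmp15, which is higher.

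Of the markers of other cell types, some endothelial and fibroblast genes were called lower in B3AR-Tg. For comparison, 2.88% of all tested genes were called lower, 2.03% were called higher and 48.9% had fold changes below 1. Summed over the list, the 12 endothelial markers held 131 to 181 CPM (WT) and 57.0 to 197 CPM (B3AR-Tg), and the 8 fibroblast markers 39.9 to 123 and 12.0 to 50.2 CPM, with Tcf21 at 3 counts or fewer in all libraries. All 12 endothelial markers had fold changes below 1 and 4 of them were called lower (edgeR), among them Pecam1 (log2 fold change −0.73, adjusted p = 0.0132) and Flt1 (−0.70, adjusted p = 0.0249). Of the 8 fibroblast markers 7 were tested, all 7 had fold changes below 1, and 4 were called, with Dcn at −1.25 (adjusted p = 0.0130) and Col3a1 at −1.76 (adjusted p = 0.00397). Col1a1 (−2.39, edgeR adjusted p = 0.00507) and Col1a2 (−1.86, adjusted p = 0.00382) were also called. Pdgfra, Lum and Dpt were not (edgeR adjusted p = 0.168, 0.109 and 0.0768). The fibroblast level thus includes collagen genes and is not a count of cells. The 10 mural markers summed to 367 to 558 CPM (WT) and 501 to 659 CPM (B3AR-Tg), most of it Abcc9. Of 9 tested, 7 had fold changes below 1, and 1 was called, Abcc9, which rose by 0.44 (edgeR adjusted p = 0.0132). Abcc9 encodes a channel subunit that myocytes also make. Acta2 did not pass (0.42, adjusted p = 0.366). Leukocyte markers summed to 4.27 to 14.8 CPM (WT) and 0.795 to 6.62 CPM (B3AR-Tg), with Cd3e at 0 in all libraries. Of these 10, 2 were tested and 0 called (edgeR; 1 had an unadjusted p under 0.05), with Lyz2 at −0.89 (adjusted p = 0.253) and Csf1r at −0.74 (adjusted p = 0.414). The Schwann cell marker Erbb3 did not pass (0.24, edgeR adjusted p = 0.456). The 5 mesothelial markers summed to 0.295 to 3.74 and 0.856 to 5.97 CPM, and none passed the low-count filter, Wt1 and Msln being under 1 CPM in the mean of each genotype. Of the 10 myocyte markers, 8 had fold changes above 1 and 1 was called, Ryr2, the calcium release channel, which rose by 0.46 (edgeR adjusted p = 0.0359).

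With the endothelial marker level (mean log2 CPM of the list) as a covariate, 0 of the 10 genes were called. Over all 10945 tested genes the calls went from 537 to 30, so the loss was not particular to these 10. Nid1 then had a log2 fold change of −0.55 (edgeR adjusted p = 0.213), Col4a1 −0.51 (0.272) and Col15a1 −0.56 (0.449). With the fibroblast marker level they had −0.40, −0.20 and −0.21 (edgeR adjusted p = 0.603, 0.823 and 0.881). In that fit 0 of the 10 genes and 3 of all 10945 tested genes were called. Not every difference shrank. Hspg2 went from 0.05 to 0.50 with the endothelial level and 0.40 with the fibroblast level (edgeR adjusted p = 0.207 and 0.686). Lamb1 went from −0.28 to −0.17 and −0.53 with the same 2 levels (edgeR adjusted p = 0.730 and 0.525). Both levels went with genotype (Pearson r = −0.648 and −0.759 over 16 animals), so levels and genotype cannot be fully told apart. Single animals differed in how far the genes went with these levels. WT replicate 2 and B3AR-Tg replicate 2 had the highest and the lowest fibroblast level, and also the highest and the lowest mean of the 10 genes. The animals that follow are examples whose marker level lay apart from the rest of their genotype. B3AR-Tg replicate 4 had the highest endothelial level of all 16 animals (3.65 on the log2 scale, against 3.09 to 3.62 in WT). Its fibroblast level, 1.73, was below those of all WT animals except replicate 6. Its Nid1 (6.98 CPM) and Col4a1 (95.7 CPM) were below those of all WT animals. Its Hspg2 (117 CPM) was the highest of all 16 animals, and its Col15a1 (3.41 CPM) the second highest in B3AR-Tg. WT replicate 6 had a fibroblast level of 1.66, below those of B3AR-Tg replicates 4, 7 and 8 (1.73, 2.21 and 2.09). Its endothelial level was 3.30, against 3.65, 2.83 and 2.74 in those animals, so they were not alike in both levels. Its Nid1 was 9.12 CPM, against 6.98, 7.40 and 7.47 CPM in those 3 animals, and its Col4a1 128 CPM, against 95.7, 112 and 75.7 CPM. Its Col15a1, at 3.82 CPM, was below that of B3AR-Tg replicate 7 (4.90 CPM) and above those of replicates 4 and 8 (3.41 and 2.09 CPM). The part of other cell types in the result was not tested beyond these fits.

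The load genes Nppa (log2 fold change −3.99, edgeR adjusted p = 0.00362), Myh7 (−2.03, adjusted p = 0.00632), Nppb (−1.13, adjusted p = 0.0223) and Acta1 (−1.74, adjusted p = 0.0245) were also lower in B3AR-Tg. Each of the 10 genes was therefore set against 3 levels within each genotype: the endothelial, the fibroblast and the load level, giving 60 relations over 8 animals each. After adjustment 0 of 60 passed by Pearson's r and 1 by Spearman's rho, while 16 and 12 had an unadjusted exact permutation p under 0.05. With scaling by library size alone, 4 passed by Pearson's r, all in WT: Col4a2 with the load level, and Col4a2, Lamc1 and Nid1 with the fibroblast level.

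By Pearson's r, the 2 largest correlations with load in WT were those of the type IV collagen chains, and neither passed adjustment. Col4a2 had r = 0.930 with the load level (exact permutation p = 0.00164, adjusted p = 0.0647) and rho = 0.905 (exact permutation p = 0.00456, adjusted p = 0.0913), and r was 0.963 without the 2 animals farthest from the median load. For Col4a1, r was 0.855 (exact permutation p = 0.0106, adjusted p = 0.109) and rho 0.810 (p = 0.0218, adjusted p = 0.163), and r was 0.888 without those animals. Lamc1 was close to Col4a1, with r = 0.848 (exact permutation p = 0.0127, adjusted p = 0.109; rho = 0.833, p = 0.0154, adjusted p = 0.163; r = 0.710 without those animals). Lama4 had r = 0.044 there (exact permutation p = 0.905, adjusted p = 0.905; rho = −0.024, p = 0.977, adjusted p = 1.00; r = −0.171 without those animals). In B3AR-Tg, Col4a2 had r = 0.782 with load (exact permutation p = 0.0165, adjusted p = 0.124; rho = 0.643, p = 0.0962, adjusted p = 0.321), which was 0.382 without 2 animals. Col4a1 had r = 0.568 there (exact permutation p = 0.141, adjusted p = 0.326) and rho = 0.524 (p = 0.197, adjusted p = 0.437), and r was 0.319 without those animals. Leaving out the animals farthest from the median load narrows its range, which by itself can lower r. How far these relations rest on those animals can therefore not be told. In WT, Lamc1 had r = 0.873 with the fibroblast level (exact permutation p = 0.00216, adjusted p = 0.0647; rho = 0.810, p = 0.0218, adjusted p = 0.163; r = 0.826 without 2 animals). The type IV collagen chains also went with the fibroblast level in WT, again without passing adjustment. Col4a2 had rho = 0.905 (exact permutation p = 0.00456, adjusted p = 0.0913) and r = 0.852 (p = 0.00523, adjusted p = 0.105). For Col4a1, rho was 0.857 (exact permutation p = 0.0107, adjusted p = 0.161) and r 0.706 (p = 0.0455, adjusted p = 0.175). Without 2 animals, r was 0.835 for Col4a2 and 0.887 for Col4a1. The relation that passed by rank was Col15a1 with the fibroblast level in B3AR-Tg, with rho = 0.976 (exact permutation p = 0.000397, adjusted p = 0.0238), r = 0.835 (p = 0.0114, adjusted p = 0.109) and r = 0.739 without 2 animals. These measures share a library, so its scaling enters both sides.

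Among the 10 genes themselves, 90 relations (45 pairs in each genotype) gave 0 past adjustment by either measure, with 11 and 6 at an unadjusted exact permutation p under 0.05. For Col4a1 and Col4a2, r was 0.927 in WT (exact permutation p = 0.00218, adjusted p = 0.0926; rho = 0.810, p = 0.0218, adjusted p = 0.392; r = 0.931 without 2 animals). In B3AR-Tg, r was 0.918 (exact permutation p = 0.00382, adjusted p = 0.0926; rho = 0.929, p = 0.00223, adjusted p = 0.137; r = 0.859 without 2 animals). Lamc1 and Hspg2 had r = 0.895 in B3AR-Tg (exact permutation p = 0.000794, adjusted p = 0.0714; rho = 0.905, p = 0.00456, adjusted p = 0.137; r = 0.908 without 2 animals).

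WT replicate 2 had the highest mean of the 10 genes (0.51 above their overall means on the log2 scale, 9 of 10 genes above) and B3AR-Tg replicate 2 the lowest (−0.59, 3 of 10 above). The same animals had the highest and the lowest fibroblast level, 3.57 and 0.341. B3AR-Tg replicate 2 also had the lowest endothelial level, 1.88.

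**Figure D5:**
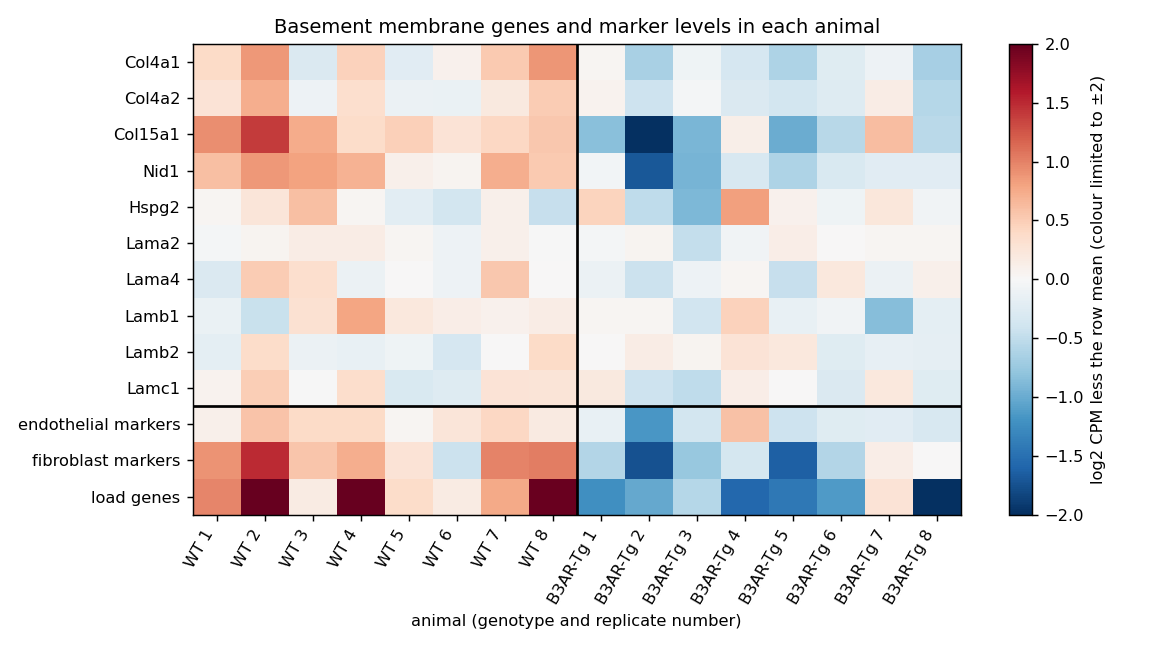
Log2 CPM less the mean of each row (colour, limited to ±2) for the 10 genes and, under the line, for the endothelial, fibroblast and load levels; columns are 8 WT and 8 B3AR-Tg animals. Col15a1, Nid1 and Col4a1 are mostly above their means in WT and below them in B3AR-Tg, as are the endothelial, fibroblast and load levels. Lama2 stays close to its mean except in B3AR-Tg replicate 3.

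Outside the 10 genes, the 10 tested genes whose levels were most like the mean of the set, after removal of genotype means over the 16 animals, had correlations between 0.837 and 0.924. They were Mgat4a, Cd93, Bgn, Cavin1, Actn4, Akap12, Mast4, Ccnyl1, Spty2d1 and Pdcd6ip. Mgat4a, a glycosyltransferase gene, came first with r = 0.924. Of the 10, Cd93, an endothelial receptor (log2 fold change −0.76, edgeR adjusted p = 0.0289), and Bgn, the proteoglycan biglycan (−1.57, adjusted p = 0.0223), were lower in B3AR-Tg. This ranking is a description of likeness. By the same measure Lamc1 (0.861) and Nid1 (0.796) were most like the mean of the other 9 genes, and Lamb1 (−0.226) least.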

How the data were processed

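The authors deposited 1 table of whole numbers per gene and animal, with no normalization. The submitters' processing notes name Salmon and GRCm39, with no role or version, so these are taken as estimated counts, possibly rounded by the authors. The annotation release and the treatment of reads shared by similar genes are not given in the sources used here. Libraries were stranded, ribosome-depleted and read from both ends, per the labels' protocols.

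Columns were matched to animals by the names in the titles, and 0 columns were left without a sample. Genes were filtered with filterByExpr (minimum count 10, minimum total count 15), scaled with TMM and fitted with edgeR 4.0.16 in R 4.3.3 on genotype only, with 2-sided tests at 0.05. Limma 3.58.1 and DESeq2 1.42.0 served as alternatives. Intervals of 95% come from the quasi-likelihood F statistic. Log2 CPM used a prior count of 2, and ratios had 0.5 added to each count. Lengths came from GENCODE M21, matched by gene ID. The 56 pairs of libraries within a genotype gave a chi-square per degree of freedom of at least 5.82, so none agreed within sampling noise. Scripts were tested on simulated data.

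Named genes were the 10 members; up to 8 called genes per related list with the smallest p; up to 3 of the most abundant uncalled basement membrane and receptor genes; the 2 most abundant markers per cell type (for Schwann cells 1, the rest of that list not being reported here); 4 load genes; and the 10 nearest genes. For fibroblasts the whole marker list is named. Members and lists were chosen with earlier results of these data known.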

Additional observations from a re-analysis of the deposited data

Results flagged for a closer look

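In each group of 8 animals, the highest or lowest animal was compared with its nearest neighbour, and a gap whose share of the whole range exceeded Dixon's 95% critical value for 8 was taken as standing apart. This was found in 4 of 74 groups, where about 1 in 20 arises by chance. Lama2 was low in B3AR-Tg replicate 3, with a gap of 0.671 of the range (log2 CPM 6.07 against 6.47 to 6.67 in the other 7 animals). In the same animal Hmcn1 was low, with a gap of 0.611 (4.98 against 5.48 to 5.80). Bcam was low in B3AR-Tg replicate 7, with a gap of 0.573 (6.53 against 6.92 to 7.21). The log2 ratio of Nid1 to Lamc1 was high in WT replicate 3, with a gap of 0.534 (−1.60 against −2.16 to −1.90).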

How the results depend on the processing

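The 3 calls among the 10 genes (537 over all genes) held under RLE, upper quartile and library-size scaling, both other filters, DESeq2 and voom. With the replicate block 1 of the 10 (Nid1) and 230 of all genes were called, with the endothelial level 0 and 30, with the fibroblast level 0 and 3, and at an adjusted p under 0.01 1 (Nid1) and 109. DESeq2 called 804 genes. The replicate numbers share only a number: same-numbered animals had correlations of −0.219 to 0.094, and under the block Col4a1 had an adjusted p of 0.0606 and Col15a1 0.0619. Leaving out single animals gave 3 to 4 of the 10 genes and 272 to 675 of all genes, with 272 without WT replicate 4, 277 without B3AR-Tg replicate 5 and 345 without B3AR-Tg replicate 8. Of the 6 ratios, 2 passed, 1 with medians and 1 to 3 without single animals. The relations with marker levels passed in 0 of 60, and in 4 with library-size scaling. Signs turned, for genes not called, for Lama2 by library size (0.0040), for Lama4 (0.026 and 0.14) and Lamc1 (0.038 and 0.16) under the endothelial and fibroblast levels, and without single animals for Lamb2 (−0.0233 to 0.0817) and Hspg2 (−0.0901 to 0.15). The causes of these changes were not tested. Scaling by library size moved the split of calls to 346 higher and 165 lower, from 222 and 315. Depth limits Col15a1 most, with as few as 7 counts.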
